A study of Mus musculus with 12 samples.

Results

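In the dataset on eosinophils of the small intestine (SI), 218 solute carrier genes were described, out of 379 genes whose symbol is Slc followed by a family number and out of 36047 genes in the table. They were chosen by level: members had a mean normalized count above 20 over the 12 libraries, while 7 glucose, lactate and iron carriers were left out by name and 154 genes had a mean of 20 or less. Just above the limit stood Slc6a19, Slc35f2 and Slc44a3, with means of 20.4, 20.7 and 21.03 normalized counts, and just below it Slc25a47, Slc6a2 and Slc25a35, with 18.7, 17.97 and 17.95. All 218 members also exceeded the mean of 10 that a gene needed to be tested, as did 26 of the genes under the limit. For 6 members the mean passed 20 through 1 subset only (Slc6a19, Slc6a20a, Slc16a5, Slc41a2, Slc44a3 and Slc35f2). Of the members, 5 have a carrier's symbol but encode no carrier (Slc9a3r1, Slc9a3r2, Slc4a1ap, Slc7a6os and Slc2a4rg-ps), which left 213 carriers: 37 for amino acids, 59 for ions, 7 for nucleosides and nucleobases, 37 mitochondrial and 73 of other classes.

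Solute carriers are membrane proteins that move nutrients, ions and metabolites by facilitated diffusion or by coupling one solute to the gradient of another, and they are numbered by family. Family 7 light chains pair with the heavy chain SLC3A2 to exchange amino acids, families 8, 9, 12 and 24 move calcium, protons, potassium and chloride, families 28 and 29 carry nucleosides, and family 25 sits in the inner mitochondrial membrane, where it exchanges metabolites with the cytosol. Eosinophils are granulocytes that enter the lamina propria of the SI in large numbers, next to an epithelium that is itself rich in carriers for dietary sugars, peptides and amino acids.

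The 3 subsets were sorted by flow cytometry from proximal SI lamina propria of wild type C57BL/6J mice, labelled female, that were fed standard chow. They were α4β7+ eosinophils, which carry the gut-homing integrin, eosinophils negative for both α4β7 and CD22 (α4β7− CD22−), and eosinophils positive for the lectin CD22 (CD22+). Each subset had 4 libraries, and each library held cells of 2 pooled mice, so the spread between libraries is that between pools. The labels of these libraries carry no age, the methods give 6 to 12 wk and both sexes for the experiments in general, and the comparisons ask how carrier expression differs between eosinophil states of one tissue.

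Normalized totals ran from 14286474 to 16915755 per library, and 19760 to 21960 genes lay above 0. Of the gate genes, Itgb7 and Cd22 followed the labels: Itgb7, the β7 integrin chain, averaged 2526, 220.4 and 156 normalized counts in α4β7+, α4β7− CD22− and CD22+ cells, and Cd22 averaged 1115, 4462 and 13334. The α4 chain Itga4 was not called against α4β7+ cells, with a log2 fold change of -0.34 in α4β7− CD22− and -0.48 in CD22+ cells. The eosinophil lectin Siglecf ran from 6884 to 7789 in the CD22+ libraries and from 7209 to 8165 in the α4β7+ libraries. Of 9 eosinophil markers, 6 were lower in CD22+ than in α4β7+ cells and none was higher, where 6.39% and 5.6% of all tested genes were. Among 7 neutrophil genes, 3 were at or under about 3 reads in every library. Of the 2 tested, 1 was lower in CD22+ than in α4β7+ cells, beside 6.39% of all tested genes. The 7 summed to a median of 72.1, 32.3 and 23.7 in α4β7+, α4β7− CD22− and CD22+ libraries. Lymphocyte and plasma cell markers summed to between 11528 and 36750 per library, mostly Igha and Jchain. Of these 12 markers, 0 were higher and 2 lower in α4β7− CD22− than in α4β7+ cells, beside 3.7% and 4.35% of all tested genes. None was called in CD22+ cells, and their part in the results was not tested. In sorted bulk samples, fewer cells of a type and less RNA per cell cannot be told apart.

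Most calls among the solute carriers were in the comparisons with α4β7+ cells, in a small group of genes spread over several transport classes. A gene was called when its adjusted p (limma, Benjamini-Hochberg over 15249 genes) was at most 0.05 and its fold change at least 1.5. In α4β7− CD22− against α4β7+ cells, 9 members were higher and 6 lower, and over all tested genes 3.7% were called higher and 4.35% lower. In CD22+ against α4β7+ cells, 13 members were higher and 10 lower, where 5.6% of all tested genes were called higher and 6.39% lower. Between CD22+ and α4β7− CD22− cells no member was higher and 1 was lower in the limma fit, against 0.21% and 0.393% of all tested genes, and 20 members had an unadjusted p under 0.05. No source says that replicate numbers mark shared pools, and same-numbered libraries of these 2 subsets had correlations of 0.14 to 0.20 after removing subset means. With the number as a block, reported here because of these correlations, 1 member was higher and 1 lower, against 0.262% and 0.393% of all tested genes. Both comparisons with α4β7+ cells use the same 4 α4β7+ libraries. As a share of the 218 members these counts are 4.13% higher and 2.75% lower in α4β7− CD22− cells, and 5.96% higher and 4.59% lower in CD22+ cells, to be read beside the shares of all tested genes.

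The classes were compared by their counts and medians. In CD22+ against α4β7+ cells, 1 amino acid carrier was called higher and 1 lower, with a median log2 fold change of -0.071 over the 37. Ion carriers had 6 higher and 1 lower and a median of 0.10 over the 59. Mitochondrial carriers had 1 higher and 4 lower and a median of -0.11 over the 37, 27 of which had a negative value. Nucleoside carriers had 0 higher and 1 lower with a median of 0.24 over the 7, and the other classes 5 higher and 3 lower with a median of 0.073 over the 73. Over all 15249 genes tested the median was 0.014, 7403 had a negative value, and 5.6% were called higher and 6.39% lower. The shares called higher and lower were 2.7% and 2.7% of amino acid, 10.2% and 1.69% of ion and 2.7% and 10.8% of mitochondrial carriers. They were 0% and 14.3% of nucleoside carriers and 6.85% and 4.11% of the other classes. No test was made between classes. The interval of the change lay within 1.5-fold in either direction for 67 of the 218 members in this comparison, for 75 in α4β7− CD22− against α4β7+ cells and for 99 in CD22+ against α4β7− CD22− cells, so for the remaining members a change of that size was not bounded out at this depth and number of libraries.

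**Figure D1:**
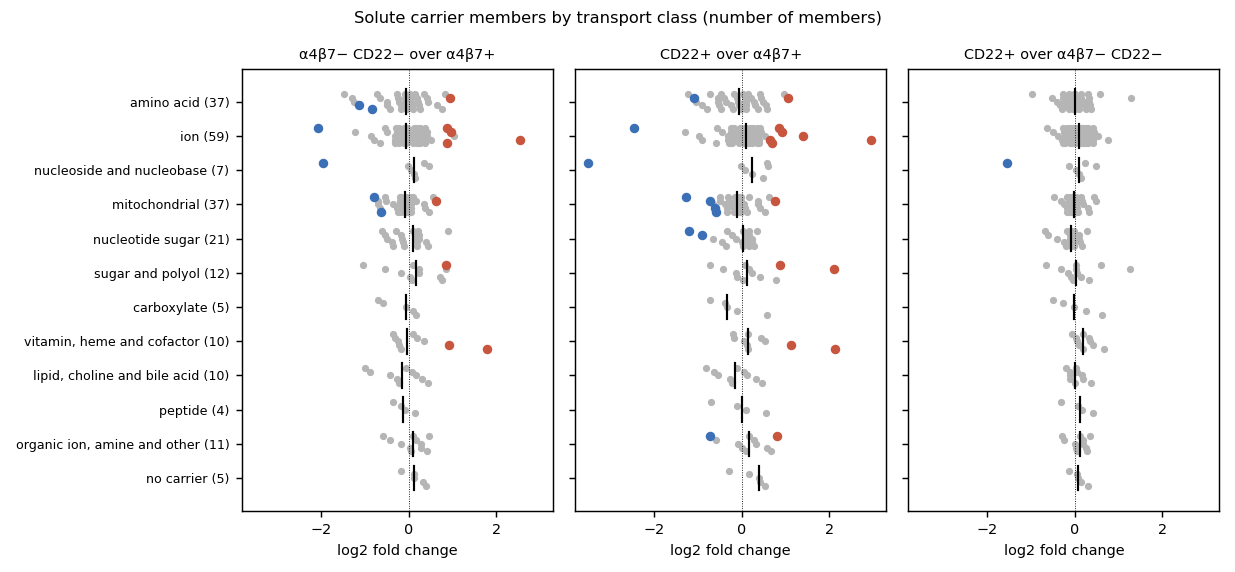
Log2 fold change (horizontal axis) of each of the 218 members, by transport class (rows, with the number of members), in the 3 comparisons, fitted without a replicate block. Red dots were called higher, blue dots lower and grey dots neither, and black bars are class medians. Most dots lie near 0, and the right panel has a single called gene, Slc29a2.

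Levels of different genes were compared per kilobase of the longest transcript. Carriers with high means over the 12 libraries were Slc25a5, an adenine nucleotide translocase, at 1508 normalized counts per kilobase, the neutral amino acid light chain Slc7a8 at 1416, its heavy chain Slc3a2 at 1376, Slc38a6 (named after its values were seen) at 1369 and the cystine-glutamate exchanger Slc7a11 at 1274. Of the Slc25a5 transcript 93.5% is shared with a pseudogene, and of that of Slc38a6 89.8% with another gene, so their levels are uncertain. Amino acid carriers made up 30.1% ± 1.06 of the summed level of the carriers per kilobase in α4β7+ cells, 30.3% ± 0.968 in α4β7− CD22− cells and 28.8% ± 1.43 in CD22+ cells (SD, n = 4). Mitochondrial carriers made up 23.7% ± 0.719, 21.2% ± 0.533 and 20.9% ± 1.17, ion carriers 20.4% ± 0.472, 20.996% ± 0.218 and 22.0% ± 0.62, and nucleoside carriers 2.96% ± 0.0562, 3.08% ± 0.0834 and 3.03% ± 0.104.

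For 5 called members with large changes, chosen after their values were seen, the sequence is shown over the 150 bases before the RefSeq start, so that their promoter composition can be set beside the changes. These were the amino acid carrier Slc38a2, the ion carriers Slc8a1 and Slc9c1, the mitochondrial Slc25a24 and the vitamin C carrier Slc23a2. The sequences are from RefSeq (GRCm38.p6), 5′ to 3′ on the strand of the gene, and capitals mark CpG dinucleotides.
Slc38a2, chr15:96699729-96699878, minus strand: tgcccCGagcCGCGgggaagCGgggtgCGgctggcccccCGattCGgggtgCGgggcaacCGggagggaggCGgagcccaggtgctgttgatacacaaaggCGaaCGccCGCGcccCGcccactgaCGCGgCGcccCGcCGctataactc
Slc8a1, chr17:81738388-81738537, minus strand: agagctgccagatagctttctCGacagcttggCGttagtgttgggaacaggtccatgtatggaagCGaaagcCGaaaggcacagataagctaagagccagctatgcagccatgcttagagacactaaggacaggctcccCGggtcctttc
Slc9c1, chr16:45535116-45535265, plus strand: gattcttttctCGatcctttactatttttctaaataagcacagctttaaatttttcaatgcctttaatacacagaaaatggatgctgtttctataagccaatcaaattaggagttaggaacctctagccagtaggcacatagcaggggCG
Slc25a24, chr3:109122999-109123148, plus strand: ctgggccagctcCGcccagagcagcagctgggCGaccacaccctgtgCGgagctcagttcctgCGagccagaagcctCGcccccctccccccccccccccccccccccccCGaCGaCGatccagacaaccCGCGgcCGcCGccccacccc
Slc23a2, chr2:132145109-132145258, minus strand: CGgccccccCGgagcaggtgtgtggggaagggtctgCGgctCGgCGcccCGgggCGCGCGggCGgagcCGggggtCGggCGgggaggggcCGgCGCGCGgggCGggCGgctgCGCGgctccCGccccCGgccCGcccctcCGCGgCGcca

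The 5 stretches differ in composition. Slc23a2 has 27 CpG and 88.7% G or C, and Slc38a2 20 CpG and 74.7%. Slc25a24 has 12 CpG and 77.3%. Slc8a1 has 5 CpG and 52.7%, and Slc9c1 2 CpG and 36.7%. Over the 224 windows of 169 members the median was 9 CpG and 63% G or C, against 4 CpG and 54% over all 32851 windows. Members were chosen by level, and the composition over tested genes alone was not measured, so this contrast is not one with other expressed genes. Motifs were searched on both strands in 300-base windows, from 250 bases before to 50 after each RefSeq start. The E-box CACGTG, which reads the same on both strands, was found in the windows of 17.2% of the 169 members, 10.8% of the 11143 tested genes with a window and 8.09% of all 27025 genes. It was there in 1 of 21 called members with a window, Slc35e3. The composite element TGATGNAA (reverse TTNCATCA), which ATF4 can bind, was in 3.55% of the members and 3.17% of tested genes. AP-1 sites (TGANTCA, which is its own reverse) were in 8.28% of the members and 7.01% of tested genes, and cAMP response elements (TGACGTCA, its own reverse) in 1.78% and 3.28%.

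Among the amino acid carriers, Slc38a2 had the call with the smallest adjusted p. It encodes SNAT2, a sodium-coupled carrier of small neutral amino acids such as alanine, serine and glutamine, and lies at chr15:96687392-96699730 (GRCm38, minus strand). Its normalized counts were 1891, 1779, 1826 and 2007 in the 4 α4β7+ libraries, 958, 1148, 1063 and 1046 in the α4β7− CD22− libraries and 819, 948, 865 and 871 in the CD22+ libraries. Every α4β7+ library was above every other one, and every CD22+ library was below every α4β7− CD22− library. The log2 fold change was -0.83 ± 0.08 (SE) in α4β7− CD22− against α4β7+ cells (adjusted p = 5.98e-06) and -1.10 ± 0.08 in CD22+ against α4β7+ cells (adjusted p = 1.50e-07). Between CD22+ and α4β7− CD22− cells it was -0.27 ± 0.08, with an adjusted p of 0.18, which did not pass. The related Slc38a1 (SNAT1), named after its values were seen, averaged 1803, 1354 and 1248 normalized counts, and its log2 fold change of -0.54 in CD22+ against α4β7+ cells (adjusted p = 0.00667) was under 1.5-fold. It was called lower without α4β7+ replicate 2 or CD22+ replicate 2 (-0.62 each).

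The heavy chain Slc3a2 and its 2 most abundant light chains differed in sign, and none of them was called. Slc3a2, which brings the light chains to the cell surface, averaged 3133 ± 457 in α4β7+ cells, 4235 ± 219 in α4β7− CD22− cells and 4245 ± 559 in CD22+ cells (SD, n = 4). Its α4β7+ libraries, at 2552 to 3646, lay below all others, but its change on the log2 scale, 0.45 in α4β7− CD22− cells (adjusted p = 0.0118) and 0.44 in CD22+ cells (adjusted p = 0.00858), was under 1.5-fold. The light chain Slc7a8 (LAT2) averaged 6355, 6057 and 4938, and Slc7a11 (xCT) 13704, 11617 and 9920.0. Both log2 fold changes in CD22+ against α4β7+ cells, -0.37 (adjusted p = 0.0138) and -0.47 (adjusted p = 0.0154), were also under 1.5-fold. Over 22 alternatives Slc7a8 ran from -0.43 to -0.24 (adjusted p up to 0.0791) and Slc7a11 from -0.56 to -0.21 (adjusted p up to 0.218).

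The other light chains were low and uneven. Slc7a6 (y+LAT2), a light chain that exchanges basic and neutral amino acids, was called lower in α4β7− CD22− than in α4β7+ cells, at 55.7, 48.8, 42.6 and 30.1 against 92.1, 180.3, 73.9 and 68.1, without overlap. The log2 fold change was -1.13 ± 0.36 (adjusted p = 0.0487), and the call was lost under 12 of 22 alternatives, among them the removal of α4β7+ replicate 1, 2 or 3, of CD22+ replicate 2 or of any single α4β7− CD22− library, with an adjusted p of up to 0.148. In CD22+ against α4β7+ cells Slc7a6 was not called (-1.05, adjusted p = 0.0522), but was without CD22+ replicate 3 (-1.32, adjusted p = 0.0177) or α4β7+ replicate 4 (-1.21, adjusted p = 0.0431). Slc7a5 (LAT1), the light chain for large neutral amino acids, stood at 80.6, 69.3, 44.3 and 274 in α4β7+ cells, where 1 library was far above the other 3. In α4β7− CD22− cells it was 33.7, 36.3, 37.7 and 38.7 and in CD22+ cells 46.4, 191, 103 and 72.3, and no comparison passed. Its log2 fold change in α4β7− CD22− against α4β7+ cells was -1.29 ± 0.48 (adjusted p = 0.0931), and without α4β7+ replicate 3 it was called lower, at -1.63 (adjusted p = 0.0414). Slc7a7 ran from 29.9 to 66.7 in α4β7+ cells and from 17.2 to 56.3 in CD22+ cells, and none of its comparisons passed.

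Slc36a3, a proton-coupled carrier of small amino acids, was the amino acid carrier that was higher outside the α4β7+ subset. Its values were 62.5, 83.9, 46.2 and 28.9 in α4β7+ cells, 114, 105, 82.99 and 100.1 in α4β7− CD22− cells and 122, 102, 104 and 103 in CD22+ cells, so CD22+ lay fully above α4β7+ and 1 α4β7+ library overlapped with α4β7− CD22−. Against α4β7+ cells, the log2 change of Slc36a3 was 0.94 ± 0.27 (adjusted p = 0.0288) in α4β7− CD22− cells and 1.05 ± 0.27 (adjusted p = 0.0115) in CD22+ cells. The first call was lost without α4β7+ replicate 3 or 4 or α4β7− CD22− replicate 1, 2 or 4, with an adjusted p of up to 0.0756. The lysosomal carrier Slc38a9, the taurine carrier Slc6a6, the basic amino acid carrier Slc7a1 and the branched-chain carrier Slc43a2, named after their values were seen, were not called, with log2 fold changes in CD22+ against α4β7+ cells of 0.58, -0.24, -0.53 and 0.14 and adjusted p of 0.00524, 0.0785, 0.00824 and 0.241. Slc38a9 and Slc7a1 missed only the 1.5-fold limit. Slc38a9 was called under 6 of 22 alternatives, among them the removal of CD22+ replicate 1 or 4 or α4β7+ replicate 1 (log2 fold change up to 0.66), and Slc7a1 under 3, among them the removal of CD22+ replicate 1 or α4β7+ replicate 2 (log2 fold change down to -0.64). In α4β7− CD22− against α4β7+ cells Slc7a1 was likewise called lower without α4β7+ replicate 2 (-0.60).

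**Figure D2:**
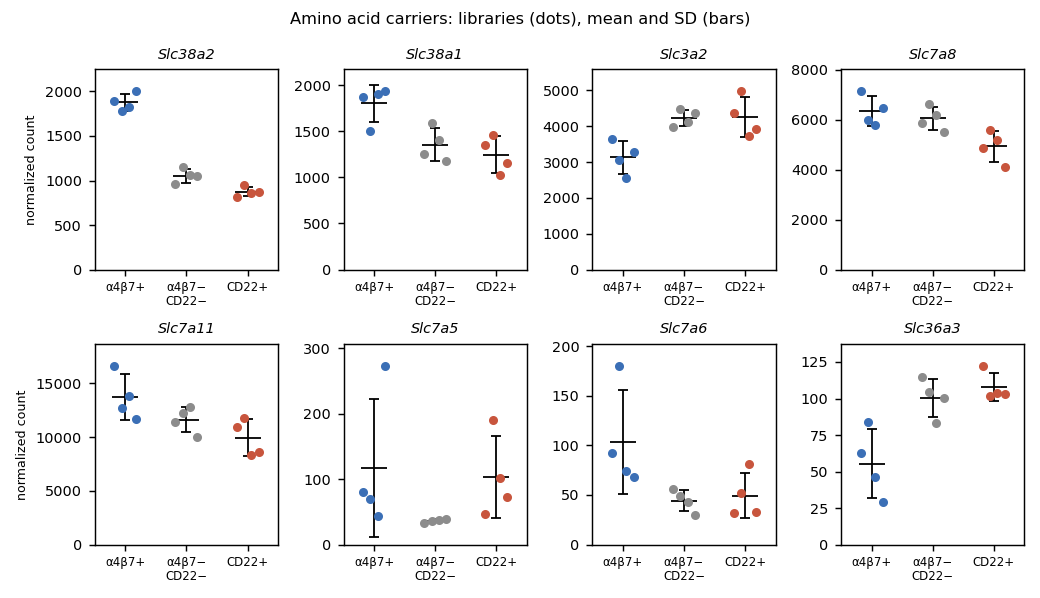
Normalized count (vertical axis, from 0) of 8 amino acid carriers in each of the 12 libraries, by subset (horizontal axis). Dots are libraries, horizontal bars are means and error bars are SD (n = 4). Slc38a2 separates all 3 subsets, whereas the high Slc7a5 mean of the α4β7+ subset rests on 1 library at 274.

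Genes that respond to amino acid supply were counted as a list. Of 22 tested ATF4 targets and amino acid response genes, 0 were higher and 4 lower in CD22+ than in α4β7+ cells, with a median log2 fold change of -0.11, where 6.39% of all tested genes were lower. In α4β7− CD22− against α4β7+ cells 0 were higher and 2 lower (Ddit4 and Aldh18a1), with a median of -0.40, where 4.35% of all tested genes were lower. The 4 lower in CD22+ cells were Ddit4, an inhibitor of mTORC1, at 346, 81.9 and 61.9, the proline synthesis enzyme Aldh18a1 at 689, 424 and 325, the serine synthesis enzyme Psat1 at 68.3, 26.1 and 25.95, and the transcription factor Cebpb at 10916, 8473 and 6298. Of 34 tested amino acid sensing and mTORC1 genes, 1 was higher and 0 lower in each comparison with α4β7+ cells. Over all tested genes, 3.7% were higher and 4.35% lower in α4β7− CD22− cells, and 5.6% and 6.39% in CD22+ cells. The called gene was the arginine sensor Castor1, higher by 0.77 on the log2 scale in α4β7− CD22− cells (adjusted p = 0.0316) and by 0.70 in CD22+ cells (adjusted p = 0.0393), both above α4β7+ cells. These and the named genes of the lists below were picked from the lists because they were called.

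Among the 59 ion carriers, 10.2% were called higher and 1.69% lower in CD22+ against α4β7+ cells, beside 5.6% and 6.39% of all tested genes. The 2 calcium exchangers Slc8a1 and Slc24a3 of the plasma membrane were called in opposite directions. Slc8a1 (NCX1), the sodium-calcium exchanger, lies at chr17:81373105-81738377 (minus strand). It was 716, 509, 595 and 819 in α4β7+ cells, 127, 139, 181 and 173 in α4β7− CD22− cells and 97.3, 119, 119.5 and 134 in CD22+ cells. The α4β7+ libraries stood far above all others, while α4β7− CD22− and CD22+ overlapped. It had a log2 fold change of -2.08 ± 0.17 in α4β7− CD22− cells (adjusted p = 1.54e-06) and of -2.47 ± 0.17 in CD22+ cells (adjusted p = 1.05e-07), each against α4β7+ cells. One of its exons overlaps a gene on the opposite strand, Gm11096, and the strand setting of the counting was not given in the sources used here.

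Slc24a3 (NCKX3), the exchanger that moves calcium with potassium against sodium, had a mean level of 529 normalized counts per kilobase. Its values were 1399, 1232, 1187 and 1470.0 in α4β7+ cells, 2409, 2900.1, 2779 and 2237 in α4β7− CD22− cells and 2465, 2933, 2537 and 2138 in CD22+ cells, with no overlap between α4β7+ and the others. Against α4β7+ cells it rose on the log2 scale by 0.96 ± 0.11 (adjusted p = 3.26e-05) in α4β7− CD22− and by 0.93 ± 0.11 (adjusted p = 2.19e-05) in CD22+ cells. The mitochondrial sodium-calcium exchanger Slc8b1, named after its values were seen, averaged 328, 272 and 314 and was not called.

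Among sodium-proton exchangers, Slc9c1 and Slc9a9 were called, both higher in CD22+ than in α4β7+ cells. Slc9c1, known as the exchanger of sperm, was low in α4β7+ cells at 11.3, 17.1, 6.65 and 11.9, and stood at 91.02, 57.2, 66.7 and 70.4 in α4β7− CD22− cells and 93.7, 106, 85.98 and 89.5 in CD22+ cells. The α4β7+ libraries lay fully below the others. Its log2 fold change, 2.55 ± 0.28 in α4β7− CD22− cells (adjusted p = 2.23e-05) and 2.96 ± 0.28 in CD22+ cells (adjusted p = 2.33e-06), was the largest rise of any member in either comparison with α4β7+ cells. Slc9a9 (NHE9), an endosomal exchanger named after its values were seen, averaged 229, 302 and 367. It was called in CD22+ cells (log2 fold change 0.70, adjusted p = 0.00787), but not without α4β7+ replicate 4, where the log2 fold change was 0.53.

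Slc12a4 (KCC1), a potassium-chloride cotransporter, was 149, 133, 229.7 and 199 in α4β7+ cells, 419.5, 362, 278 and 249 in α4β7− CD22− cells and 317, 286, 236 and 261 in CD22+ cells. The α4β7+ libraries were the lowest, without overlap. On the log2 scale Slc12a4 rose by 0.88 ± 0.20 (adjusted p = 0.00744) in α4β7− CD22− cells and 0.65 ± 0.20 (adjusted p = 0.0294) in CD22+ cells, and the second call was lost without CD22+ replicate 1 or 2 or α4β7+ replicate 1 or 2, with an adjusted p of up to 0.0876. Slc12a7, a related cotransporter named after its values were seen, was 110.2, 117, 157 and 148 in α4β7− CD22− cells and 192, 205, 311 and 201 in CD22+ cells, without overlap. It was not called (log2 fold change 0.76 ± 0.19, adjusted p = 0.0818), but was the member called higher in CD22+ than in α4β7− CD22− cells with the replicate block (adjusted p = 0.0285).

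Of 26 carriers of zinc, copper, magnesium and other metals, 1 was called higher in CD22+ than in α4β7+ cells (3.85%, against 5.6% of all tested genes) and 0 lower (against 6.39%). Slc39a4 (ZIP4), a zinc importer named after its values were seen, was 209, 183, 183 and 159 in α4β7+ cells, 277, 244, 234 and 225 in α4β7− CD22− cells and 338, 368, 310.1 and 303 in CD22+ cells. The 3 subsets did not overlap. The log2 fold change was 0.85 ± 0.13 (adjusted p = 1.79e-04) in CD22+ and 0.42 (adjusted p = 0.0368) in α4β7− CD22− against α4β7+ cells, the latter under 1.5-fold. The zinc carrier Slc30a9, named after its values were seen, averaged 1869, 1279.7 and 1266, and its change on the log2 scale, -0.54 (adjusted p = 0.00363) in α4β7− CD22− cells and -0.56 (adjusted p = 0.00179) in CD22+ cells, was under 1.5-fold. Without α4β7+ replicate 2 Slc30a9 was called lower in both (-0.64 and -0.66), and without CD22+ replicate 2 in CD22+ cells (-0.63).

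Ion pumps and the genes that work with them were read as a list. Of 21 tested, 1 was called higher and 1 lower in CD22+ against α4β7+ cells (5.6% and 6.39% of all tested genes), and 2 higher and 1 lower in α4β7− CD22− against α4β7+ cells (3.7% and 4.35% of all tested genes). Atp1b1, the β subunit of the sodium pump that sets the gradient for many carriers, averaged 1551, 3669 and 3885 and was called higher in both, by 1.23 on the log2 scale in α4β7− CD22− cells (adjusted p = 7.62e-06) and by 1.32 in CD22+ cells (adjusted p = 1.60e-06). The proton channel Hvcn1 averaged 3145, 4781 and 4668 and was called in α4β7− CD22− cells. The endosomal chloride-proton exchanger Clcn5 averaged 263, 122 and 128 and was lower in both.

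Mitochondrial carriers included 3 genes for the exchange of ATP-Mg and phosphate, and they split in direction. Slc25a24 lies at chr3:109123149-109168457 (plus strand). It was 904, 591, 849 and 784 in α4β7+ cells, 508, 425, 484 and 376 in α4β7− CD22− cells and 327, 358, 316 and 290.1 in CD22+ cells, so the 3 subsets were ordered without overlap. Slc25a24 had a log2 fold change of -0.79 ± 0.14 (adjusted p = 0.00123) in α4β7− CD22− cells and -1.26 ± 0.14 (adjusted p = 1.03e-05) in CD22+ against α4β7+ cells, and -0.47 ± 0.14 (adjusted p = 0.173) between CD22+ and α4β7− CD22− cells, which did not pass. Slc25a25 was 627, 516, 453 and 594 in α4β7+ cells, 339, 353, 336 and 370.0 in α4β7− CD22− cells and 432, 395, 275 and 350.3 in CD22+ cells. Its α4β7+ libraries were the highest, and the log2 fold change was -0.64 ± 0.14 (adjusted p = 0.007) in α4β7− CD22− cells and -0.60 ± 0.14 (adjusted p = 0.0068) in CD22+ cells. Without α4β7+ replicate 1 both changes, and without α4β7+ replicate 4 or CD22+ replicate 3 the second, fell under 1.5-fold, and the smallest was -0.47. It overlaps Naif1 on the opposite strand. Slc25a23 was 103, 80.2, 101 and 118 in α4β7+ cells, 129, 125, 189.9 and 183 in α4β7− CD22− cells and 159, 152, 134 and 131 in CD22+ cells, with α4β7+ the lowest. It was called in α4β7− CD22− against α4β7+ cells (log2 fold change 0.62 ± 0.18, adjusted p = 0.0351) but not in CD22+ cells (adjusted p = 0.0598), and the call was lost without α4β7+ replicate 1, 2 or 3 or α4β7− CD22− replicate 3 or 4, with an adjusted p of up to 0.107. In CD22+ cells Slc25a23 was called without α4β7+ replicate 4 (0.60, adjusted p = 0.0491).

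The remaining 3 called mitochondrial carriers differed between CD22+ and α4β7+ cells. Slc25a12, an aspartate-glutamate carrier named after its values were seen, averaged 927 ± 93.6, 638 ± 79.6 and 622 ± 135 (SD, n = 4) and was lower in CD22+ cells (log2 fold change -0.60 ± 0.14, adjusted p = 0.00767). Without α4β7+ replicate 1 or CD22+ replicate 3 or 4 the change was under 1.5-fold, down to -0.47. In α4β7− CD22− cells Slc25a12 was called lower without α4β7− CD22− replicate 2 (-0.59) or 4 (-0.60). Slc25a37 (mitoferrin 1), an iron importer, averaged 217 ± 63.6, 129 ± 17.4 and 127 ± 26.1, and α4β7+ overlapped with CD22+ because 1 α4β7+ library stood at 124. Its log2 fold change of -0.73 ± 0.23 (adjusted p = 0.0369) in CD22+ cells was lost under 8 of 22 alternatives, among them the removal of α4β7+ replicate 1, 3 or 4 or CD22+ replicate 2 or 4, with an adjusted p of up to 0.106. In α4β7− CD22− cells Slc25a37 was called lower without α4β7+ replicate 2 (-0.94, adjusted p = 0.00423). Its relative Slc25a28 (mitoferrin 2), named after its values were seen, averaged 776, 747 and 716. Slc25a10, the dicarboxylate carrier, was 53.5, 95.9, 93.8 and 97.7 in α4β7+ cells, 111, 94.8, 133 and 123 in α4β7− CD22− cells and 108, 204, 125 and 143 in CD22+ cells. Its rise in CD22+ cells (log2 fold change 0.76 ± 0.24, adjusted p = 0.0342) was lost without α4β7+ replicate 1 or CD22+ replicate 2 or 4, with an adjusted p of up to 0.114.

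The 2 mitochondrial carriers with the highest levels per kilobase were not called. The phosphate carrier Slc25a3 averaged 2825, 2946 and 2736, with a 95% interval of the log2 fold change of -0.20 to 0.11 in CD22+ against α4β7+ cells. Slc25a5 averaged 2255, 1753 and 1602, a log2 fold change of -0.50 (adjusted p = 0.00149), under 1.5-fold. Named after their values were seen, the carnitine carrier Slc25a20 had -0.38 (adjusted p = 0.0127), the citrate carrier Slc25a1 -0.014, the pyrimidine nucleotide carrier Slc25a36 0.37 (adjusted p = 0.0198) and the second aspartate-glutamate carrier Slc25a13 0.62 (adjusted p = 0.301) on the log2 scale in the same comparison, and none was called. Of 18 tested transport genes of mitochondria outside family 25, 1 was higher and 3 lower in CD22+ than in α4β7+ cells, beside 5.6% and 6.39% of all tested genes. The serine carrier Sfxn1 averaged 401, 276 and 257, its relative Sfxn3 493, 316 and 282, and the calcium uniporter Mcu 1062, 791 and 695. Sfxn5 averaged 138, 183 and 225 and was the one that was higher.

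Of the 7 nucleoside carriers, 1 (14.3%) was called, lower in all 3 comparisons. Of all tested genes, 4.35% were lower in α4β7− CD22− and 6.39% in CD22+ against α4β7+ cells, and 0.393% between CD22+ and α4β7− CD22− cells. Slc29a2 (ENT2), an equilibrative carrier of nucleosides and nucleobases at chr19:5023860-5031972 (plus strand), had the largest fall of any member in both comparisons of CD22+ cells. Its values were 97.6, 187, 137 and 147 in α4β7+ cells, 29.9, 26.6, 40.5 and 47.2 in α4β7− CD22− cells and 5.68, 13.9, 11.7 and 17.1 in CD22+ cells, which did not overlap. It had a log2 fold change of -1.95 ± 0.34 in α4β7− CD22− cells (adjusted p = 0.00118) and of -3.50 ± 0.34 in CD22+ against α4β7+ cells (adjusted p = 2.91e-06). Between CD22+ and α4β7− CD22− cells the change was -1.55 ± 0.34 (adjusted p = 0.0436, or 0.0285 with the replicate block). This was the single call among members in that comparison without the block, and it was lost under 16 of 22 alternatives, with an adjusted p between 0.0192 and 0.136 over all 22. Leaving out any single library other than CD22+ replicate 4 was enough to lose it.

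The other nucleoside carriers were not called in any comparison. Slc29a1 (ENT1) was 316, 280.3, 251 and 344 in α4β7+ cells, 279.6, 383, 273 and 301 in α4β7− CD22− cells and 366, 263, 312 and 322 in CD22+ cells, overlapping throughout, and its 95% interval was -0.23 to 0.40 in CD22+ against α4β7+ cells. The concentrative carrier Slc28a2, of which 99.8% is shared with the gene model Gm14085, averaged 2076, 2255 and 2050.3. Named after their values were seen, Slc29a3, Slc28a3, Slc28a2b and the purine carrier Slc43a3 had log2 fold changes of 0.24, 0.48, 0.59 and 0.57 in CD22+ against α4β7+ cells, with adjusted p of 0.474, 0.246, 0.158 and 0.0323. Slc43a3 missed only the 1.5-fold limit, and was called higher without CD22+ replicate 3 (0.66) or α4β7+ replicate 2 (0.69). Among 16 nucleoside and adenosine enzymes, 2 were higher and 3 lower in CD22+ than in α4β7+ cells, where 5.6% and 6.39% of all tested genes were. The ectoenzyme Entpd1 (CD39), which hydrolyses extracellular ATP, averaged 7503, 13034 and 11311, and uridine phosphorylase Upp1 187, 368 and 403. The lower ones were adenosine deaminase Ada at 129, 64.8 and 83.8, the AMP ectonucleotidase Nt5e (CD73) at 73.4, 42.2 and 38.8, and uridine kinase Uck2 at 292, 191 and 188.

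**Figure D3:**
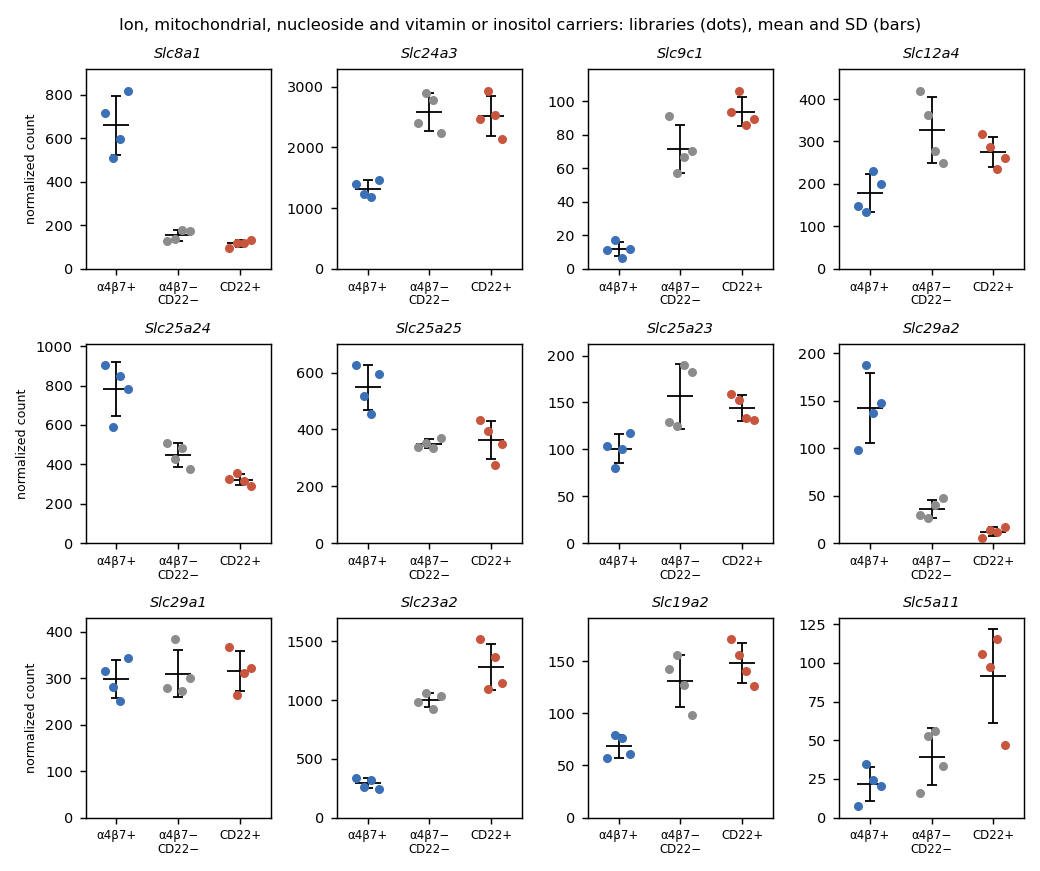
Normalized count (vertical axis, from 0) of 12 ion, mitochondrial, nucleoside and vitamin or inositol carriers in each of the 12 libraries, by subset (horizontal axis). Dots are libraries, horizontal bars are means and error bars are SD (n = 4). Slc8a1, Slc25a24 and Slc29a2 were highest in α4β7+ cells, Slc24a3, Slc9c1 and Slc23a2 lowest, and Slc29a1 overlapped across subsets.

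Among the other classes, the vitamin carriers Slc23a2 and Slc19a2 were higher outside the α4β7+ subset. Slc23a2 (SVCT2), the sodium-coupled ascorbate carrier at chr2:132052496-132145108 (minus strand), was 335, 262, 318 and 246 in α4β7+ cells, 979, 1057, 927 and 1032 in α4β7− CD22− cells and 1517, 1096, 1365 and 1146 in CD22+ cells. The 3 subsets were ordered without overlap. On the log2 scale Slc23a2 rose by 1.79 ± 0.12 (adjusted p = 3.25e-07) in α4β7− CD22− cells and 2.14 ± 0.12 (adjusted p = 1.55e-08) in CD22+ against α4β7+ cells, and 0.35 ± 0.12 (adjusted p = 0.302) between CD22+ and α4β7− CD22− cells, which did not pass. Slc19a2, a thiamine carrier, was 57.3, 78.8, 75.9 and 60.7 in α4β7+ cells, 143, 156, 127 and 98.4 in α4β7− CD22− cells and 171, 156, 141 and 126 in CD22+ cells, with α4β7+ the lowest. Its log2 fold change was 0.92 ± 0.19 (adjusted p = 0.00406) and 1.11 ± 0.19 (adjusted p = 5.92e-04).

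In the sugar and polyol class, Slc45a4 averaged 758 ± 149 in α4β7+ cells, 1342 ± 52.8 in α4β7− CD22− cells and 1382 ± 169.6 in CD22+ cells (SD, n = 4), without overlap between α4β7+ and the others. The log2 fold change was 0.84 ± 0.13 (adjusted p = 4.20e-04) in α4β7− CD22− cells and 0.88 ± 0.13 (adjusted p = 1.65e-04) in CD22+ cells. Slc5a11 (SMIT2), a sodium-inositol cotransporter, was 7.68, 34.6, 24.4 and 20.4 in α4β7+ cells, 15.9, 52.6, 55.8 and 33.5 in α4β7− CD22− cells and 106, 97.2, 115 and 47.2 in CD22+ cells. CD22+ lay above α4β7+ without overlap, and α4β7− CD22− overlapped with both. Only its change in CD22+ against α4β7+ cells was called, at 2.11 ± 0.48 (adjusted p = 0.00506).

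Of the 21 family 35 carriers, which supply the Golgi with nucleotide sugars and sulfate donor, 2 (9.52%, against 6.39% of all tested genes) were lower in CD22+ than in α4β7+ cells and 0 higher (against 5.6%). Slc35b2, the carrier of the sulfate donor PAPS, was 348, 379.7, 405 and 322 in α4β7+ cells, 264, 254, 305 and 193 in α4β7− CD22− cells and 206, 156, 115 and 164 in CD22+ cells, and its log2 fold change was -1.20 ± 0.18 (adjusted p = 1.85e-04) in CD22+ against α4β7+ cells. The α4β7+ libraries were above all others, and the change in α4β7− CD22− cells (-0.53, adjusted p = 0.0628) was called under 1 of 22 alternatives, without α4β7− CD22− replicate 3 (-0.62, adjusted p = 0.0468). Slc35e3 averaged 168, 115 and 86.2, a log2 fold change of -0.91 ± 0.21 (adjusted p = 0.00548), and 26.9% of its transcript is shared with another gene. In family 22 of organic ion carriers, Slc22a15 was lower in CD22+ than in α4β7+ cells (279.8 against 467, log2 fold change -0.73 ± 0.14, adjusted p = 0.00152). Slc22a23, named after its values were seen, was higher (169.7 against 98.8, log2 fold change 0.82 ± 0.22, adjusted p = 0.0172), but not without CD22+ replicate 4, where the adjusted p was 0.0512. None of 5 carboxylate, 10 lipid, choline and bile acid and 4 peptide carriers was called in any comparison. Against α4β7+ cells, 3.7% to 6.39% of all tested genes were called in each direction. Abundant carriers of these classes included the choline carrier Slc44a2 at 2733, 3398 and 3794 and Slc16a6 at 2097, 2353 and 1969.

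**Figure D4:**
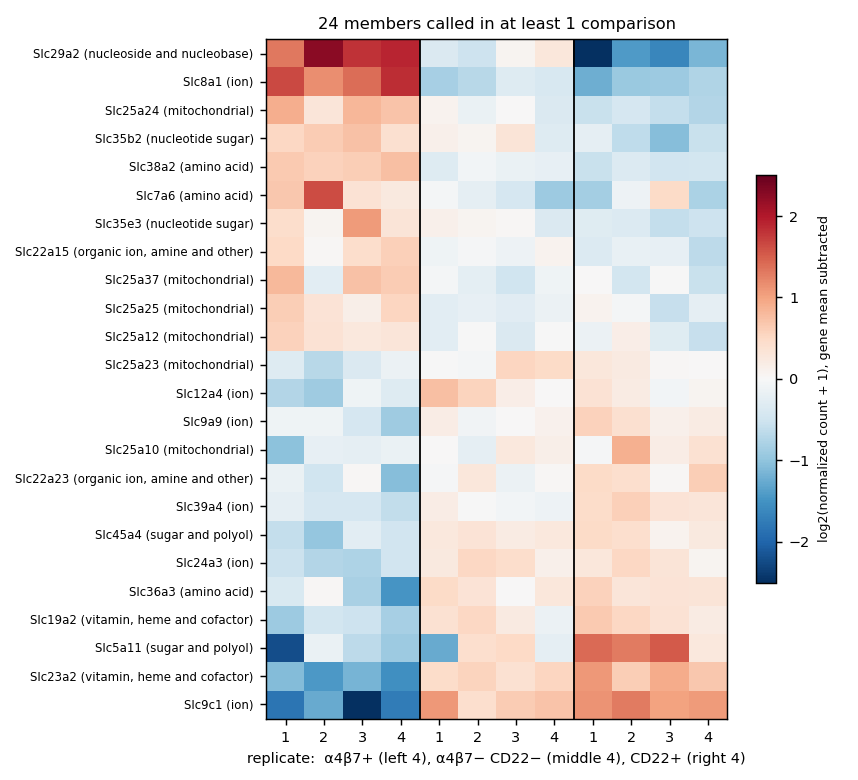
Of the 25 members called in at least 1 comparison without a replicate block, 24 (rows, with transport class) in the 12 libraries (columns), as log2(normalized count + 1) minus the mean of the gene. Red is above and blue below that mean, and rows run from the most negative to the most positive log2 fold change of CD22+ against α4β7+ cells, from Slc29a2 to Slc9c1.

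Carriers that mark the intestinal epithelium were present in the sorted libraries at levels that varied widely between libraries of one subset. Of 20 such carriers, 12 were members and 16 were tested, and none was called in any of the 3 limma comparisons fitted without a replicate block. Of all tested genes, 3.7% were called higher and 4.35% lower in α4β7− CD22− against α4β7+ cells. In CD22+ against α4β7+ cells it was 5.6% and 6.39%, and between CD22+ and α4β7− CD22− cells 0.21% and 0.393%. The median log2 fold change of the 16 was -0.33, -0.27 and 0.043 in the same order, beside 0.003, 0.014 and -0.0014 over all tested genes. The sodium-glucose cotransporter Slc5a1 was 202, 190.1, 346 and 416 in α4β7+ cells, 90.7, 52.2, 336 and 194 in α4β7− CD22− cells and 63.7, 107, 513 and 213 in CD22+ cells, 9.84-fold apart between the lowest and the highest library. The peptide carrier Slc15a1 was 23.96, 50.4, 87.7 and 76.5 in the α4β7+ libraries, 43.6, 36.6, 74.2 and 42.2 in the α4β7− CD22− libraries and 20.6, 46.8, 142 and 44.5 in the CD22+ libraries. Both were highest in CD22+ replicate 3.

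Epithelial marker genes varied along the same libraries. The sum of 17 epithelial markers was lowest at 3827 in CD22+ replicate 1 and highest at 14325 in CD22+ replicate 3. In the α4β7+ libraries it ran from 6068 to 12245, in the α4β7− CD22− libraries from 4910 to 9191, and none of the 17 was at or under about 3 reads in every library. The keratin Krt8 ran from 338 in CD22+ replicate 1 to 2484 in CD22+ replicate 3. Of the 17, 1 was higher (Olfm4) and 0 lower in CD22+ against α4β7+ cells, beside 5.6% and 6.39% of all tested genes. In α4β7− CD22− against α4β7+ cells 1 was higher (Olfm4) and 1 lower (Sis), beside 3.7% and 4.35%. The median log2 fold change of the 17 was -0.50 in this comparison and -0.57 in CD22+ against α4β7+ cells. Over all tested genes it was 0.003 and 0.014. Paneth cell markers summed to between 61.1 and 1050 per library, macrophage and dendritic cell markers to between 8525 and 11064, stromal and endothelial markers to between 10638 and 13959 and mast cell markers to between 57.6 and 178. The sort kept live CD45+ CD11b+ Siglec-F+ cells without MHC class II or Ly6G, a gate that would remove epithelial cells, and the part of epithelial cells or free epithelial RNA in these carriers was not tested.

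The amino acid carriers of this epithelium were low. The neutral amino acid carrier Slc6a19 was 25.04, 44.4, 17.01 and 27.5 in α4β7+, then 6.93, 5.97, 42.3 and 7.02 in α4β7− CD22− cells and 1.03, 13.2, 36.7 and 17.3 in CD22+ cells. The proline carrier Slc6a20a was 46.3, 15.2, 39.04 and 30.99 in the α4β7+ libraries, 26.7, 6.09, 13.5 and 4.62 in the α4β7− CD22− libraries and 25.6, 6.83, 25.2 and 13.7 in the CD22+ libraries. Slc6a19 was not called, and the log2 fold change of Slc6a20a in α4β7− CD22− against α4β7+ cells was -1.48 (adjusted p = 0.103), or -1.92 (adjusted p = 0.0402) without α4β7− CD22− replicate 1. Both genes passed the membership limit only through their α4β7+ values, so the choice of members favours lower values outside that subset. Slc3a1 and Slc7a9, which together carry cystine and basic amino acids, ran from 11.8 to 54.8 and 10.5 to 53.5 in CD22+ cells. The apical sodium-proton exchanger Slc9a3 ran from 13.4 to 108 in the same libraries, Slc26a6 from 24.6 to 53.9 and the glucose carrier Slc2a2 from 23.7 to 58.6. The bicarbonate carrier Slc4a4, named after its values were seen and not on the list, ran from 58.04 to 156 in α4β7+ cells and from 25.2 to 103 in CD22+ cells. It was not called, but without CD22+ replicate 3 it was called lower in CD22+ cells (-1.26, adjusted p = 0.0492) and in α4β7− CD22− cells (-1.22, adjusted p = 0.0499) against α4β7+ cells.

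Slc10a2, Slc28a2 and Slc26a3, also on the list, spanned narrower ranges over the libraries than Slc5a1. The bile acid carrier Slc10a2 was 94.9 in CD22+ replicate 3, its lowest library, and 164 in α4β7− CD22− replicate 3, its highest, a 1.72-fold range. The nucleoside carrier Slc28a2 spanned 1.25-fold over the 12 libraries. The chloride-bicarbonate exchanger Slc26a3 was 151, 136, 123 and 118 in α4β7+ cells, 76.1, 112, 93.6 and 96.9 in α4β7− CD22− cells and 93.4, 111, 121 and 121 in CD22+ cells.

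**Figure D5:**
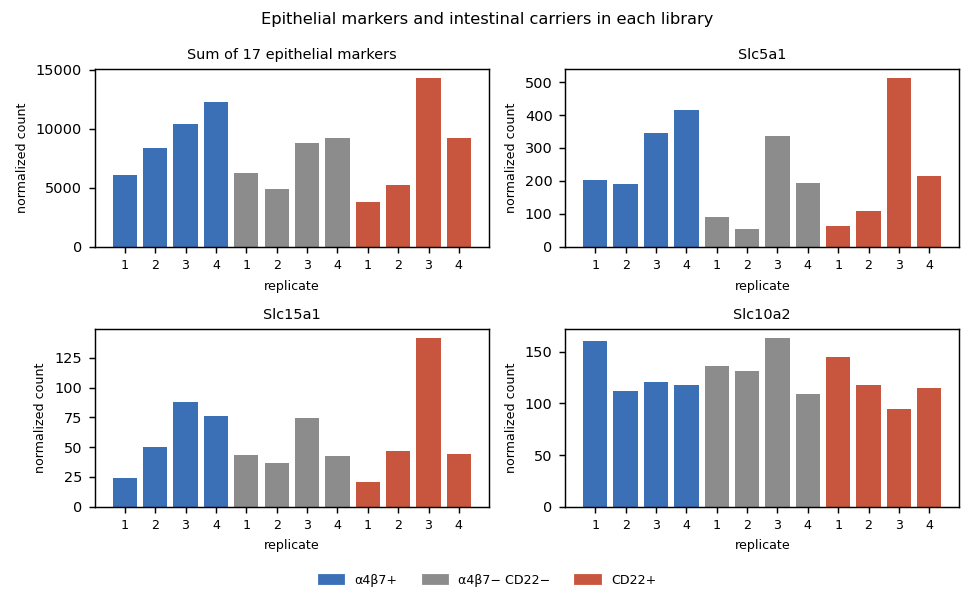
Normalized count (vertical axes, from 0) of the summed epithelial markers and of Slc5a1, Slc15a1 and Slc10a2 in each library (bars, by replicate), coloured by subset. The first 3 panels peak in CD22+ replicate 3, at 14325, 513 and 142, while Slc10a2 is lowest there, at 94.9.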

How the data were processed

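RNA of 12 SI eosinophil libraries, 4 per subset, was measured by RNA sequencing of stranded total RNA libraries made from 3 ng of input. The deposited signal values are normalized counts: the authors trimmed reads with Trimmomatic 0.39, pseudoaligned them to mm10 with kallisto 0.46.1 and normalized the estimated counts with DESeq2 1.38.2. They are not whole numbers, so tests for whole counts were not run. One read was worth about 0.852 to 1.159 normalized counts, and the floor of 3 reads is approximate. The columns were matched to libraries by title.

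Genes with a mean normalized count above 10 were tested in R 4.3.3 with limma 3.58.1 on log2(normalized count + 1), with all 12 libraries in the model, a trend of the variance and Benjamini-Hochberg adjustment over 15249 genes per comparison. Genes were called at 1.5-fold or more with an adjusted p not above 0.05. A fold change on this scale understates that of low genes. The fit was tested on simulated data. Intervals are 95%. Transcript sharing was found with BLAST 2.17.0 at 90% identity, and gene positions are from GENCODE M21 (GRCm38). Per library values were drawn with matplotlib 3.10.9.

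The members, transport classes and gene lists were chosen with earlier results of these data known, and the 5 members that encode no carrier were taken out of the classes after the table was seen. Members were named by these rules: per class, comparison and direction the 3 called members with the largest change and a mean of at least 50, the 2 per class highest per kilobase, Slc3a2 and its light chains, the 3 genes on either side of the limit, and the epithelial carriers. Some members that these rules name are not reported here, but they are in every count. No source says that replicate numbers mark shared pools. Correlations of same-numbered libraries, after removing subset means, exceeded 0.1 in all 4 pairs of CD22+ and α4β7− CD22− libraries (0.14 to 0.20), but not in all pairs of the other comparisons (-0.059 to 0.18). For CD22+ against α4β7− CD22− cells, the counts of called members, Slc29a2 and Slc12a7 are also given with a replicate block. The other gene values, class medians and intervals of that comparison are from the fit without a block. The alternatives were other pseudocounts, filters and scalings, adjusted p alone, a fit without the trend or with only the 2 subsets compared, a replicate block and leaving out each library.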

Additional observations from a re-analysis of the deposited data

Results flagged for a closer look

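Of 201 sets of 4 libraries (67 named genes in 3 subsets), 8 held a library whose gap to the nearest of the others, divided by the range, exceeded Dixon's 95% critical value for 4 values, where chance gives about 1 in 20. Slc25a10 stood at 53.5 in α4β7+ replicate 1, against 93.8 to 97.7 in the others. Slc36a3 stood at 122 in CD22+ replicate 1, against 102 to 104. Slc38a1 stood at 1501 in α4β7+ replicate 2, against 1867 to 1939, and Slc38a6 at 4654 in the same library, against 5235 to 5320. Slc6a19 stood at 42.3 in α4β7− CD22− replicate 3, against 5.97 to 7.02. Slc6a6 stood at 5396 in α4β7+ replicate 1, against 4647 to 4729. Slc7a5 stood at 274 in α4β7+ replicate 4, against 44.3 to 80.6. Slc7a7 stood at 38.7 in α4β7− CD22− replicate 4, against 20.7 to 23.5. Their causes were not tested.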

How the results depend on the processing

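Of 39 called pairs of a named gene and a comparison, 27 were called under all 22 alternatives, 12 were lost under at least 1 and 0 reversed. Of 162 uncalled pairs, 30 were called under an alternative. With adjusted p alone, 12 members were lower in α4β7− CD22− against α4β7+ cells, and 20 were higher and 22 lower in CD22+ against α4β7+ cells, since the fold limit is then gone. In CD22+ against α4β7− CD22− cells the lower count was 0 with a filter above 50, with no filter, with only the 2 subsets compared, with a pseudocount of 10 and without the trend. The mitochondrial median in CD22+ against α4β7+ cells was -0.069 with a filter above 50. With quantile normalization the medians in CD22+ against α4β7− CD22− cells were 0.035 for ion carriers and -0.021 for the other classes. The causes were not tested.

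Leaving out each library gave 7 to 10 members higher and 4 to 8 lower in α4β7− CD22− against α4β7+ cells, 12 to 15 and 7 to 13 in CD22+ against α4β7+ cells, and 0 and 0 to 1 in CD22+ against α4β7− CD22− cells. The class medians in α4β7− CD22− against α4β7+ cells then ran from -0.087 to 0.023 for amino acid carriers, -0.050 to 0.069 for ion carriers, -0.11 to -0.064 for mitochondrial carriers, 0.025 to 0.15 for nucleoside carriers and -0.0095 to 0.086 for other carriers. The class medians in CD22+ against α4β7+ cells then ran from -0.11 to -0.016 for amino acid carriers, 0.053 to 0.12 for ion carriers, -0.12 to -0.094 for mitochondrial carriers, 0.057 to 0.36 for nucleoside carriers and 0.032 to 0.14 for other carriers. The class medians in CD22+ against α4β7− CD22− cells then ran from -0.041 to 0.032 for amino acid carriers, 0.039 to 0.096 for ion carriers, -0.055 to -0.0099 for mitochondrial carriers, -0.011 to 0.14 for nucleoside carriers and -0.014 to 0.059 for other carriers.

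For both comparisons with α4β7+ cells the replicate numbers were not taken to pair the libraries, since 2 of 4 correlations between same-numbered libraries of α4β7− CD22− and α4β7+ cells, and 1 of 4 of CD22+ and α4β7+ cells, exceeded 0.1. For 6 of 12 libraries the own number was the best match in both other subsets, which is a hint from the data and not from the design. With a replicate block, which changed no other call in CD22+ against α4β7− CD22− cells than that of Slc12a7, 10 members were lower in α4β7− CD22− against α4β7+ cells, among them all 6 of the fit without it, and 1 (Slc12a7) was higher in CD22+ against α4β7− CD22− cells. Among the named genes, those not called in the reported fit but called lower in α4β7− CD22− against α4β7+ cells with the block were the epithelial carriers Slc5a1 (adjusted p = 0.0426) and Slc6a20a (adjusted p = 0.0266), Slc4a4 (adjusted p = 0.0476) and Slc25a37 (adjusted p = 0.0442), and in CD22+ against α4β7+ cells Slc7a6 (adjusted p = 0.0365). Slc6a20a, also among the 10 lower members, became a member only through its α4β7+ values, so the choice of members favours a lower call for it. Low members have wide intervals, and a change under 1.5-fold was bounded for fewer than 50% of the members in every comparison.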
